A study of Homo sapiens with 9 samples.

Results

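The comparison asked what stays different, and what matches, when neural crest-like cells that were first expanded with the inhibitor SB431542 are moved to the medium of cells expanded without it. It used 6 of 9 RNA sequencing libraries, 3 from group F_FSB and 3 from group F. Of 25593 loci in the tables, 13216 genes were tested, those that reached 1 FPKM in 3 or more of the 9 libraries and had an OK quantification status in all 9. FPKM is the number of fragments assigned to a gene, divided by transcript length and by the fragments mapped in that library. All cells were derived from 1 established line of human embryonic stem cells, H9. All cells, those of F included, had received 10 µM SB431542 during 6 days of differentiation. The sort that followed took cells high in CD271 and negative for CD73, per the growth protocol, although the cell type label gives both markers as positive. On fibronectin, under 5% oxygen, group F was expanded with 5 to 10 ng/ml of the growth factor FGF2. Group F_FSB was expanded with FGF2 and 3 to 5 µM SB431542 for 4 passages and then with FGF2 alone for 3 more. Group FSB, whose values are given beside them, kept the inhibitor. Harvest was at passage 6 to 7 in every group. F_FSB and FSB were divided from the same expanded cells, whereas the sort behind the F cultures was not given in the sources used here. Earlier medium and culture origin therefore cannot be told apart.

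SB431542 blocks the receptor kinases through which TGF-β, Activin and Nodal activate the transcription factors SMAD2 and SMAD3. The neural crest is an embryonic population that forms peripheral neurons, glia and pigment cells and, in the head, a mesenchyme that makes cartilage, bone and connective tissue. Signalling through these receptors is known to promote mesenchymal matrix production and actin-based contractile programmes.

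After 3 passages in the same medium, type I collagen, cholesterol synthesis genes and most cell cycle genes of F_FSB cells were within 2-fold of F cells. The cell cycle share, 23 of 25 proliferation genes, stands beside 85.3% of all genes. Of 39 fibrillar matrix genes, in contrast, only 16 were within 2-fold. Genes that were highest with the inhibitor, such as CYP1A1 and LIN28A, were near 0 in both. Among the largest differences without overlap of libraries, the Hedgehog co-receptors GAS1 and BOC and the homeobox factors BARX1, LHX8 and HOXA3 were lower in F_FSB. The integrins ITGA1 and ITGA8, the crosslinking enzyme TGM2 and the heat shock protein CRYAB were higher. Only GAS1 passed the test across all genes, so the others are given below as values.

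The F libraries were not alike. F replicate 1 had a Pearson correlation of 0.944 and 0.943 with F replicates 2 and 3, and of 0.967 with F_FSB replicate 1. The labels used here hold nothing against which a mix-up of F replicate 1 could be checked, and the means, differences and tests take its label as given. These correlations are across genes, which are not independent replicates. The share of tested genes that differed 2-fold or more was 5.53% and 5.43% between F replicate 1 and F replicates 2 and 3, but 2.19% between F replicate 1 and F_FSB replicate 1, the smallest share of any pair between or within these groups. F_FSB was the more uneven group, with a root mean square SD of 0.463 on the log2 scale against 0.388 in F and 0.3 in FSB. F_FSB replicate 2 lay 2-fold or more apart from both other F_FSB libraries at 465 genes, F_FSB replicate 3 at 352 and F_FSB replicate 1 at 171, and F replicate 1 lay apart from both other F libraries at 377. The tables hold no fragment counts. A rough estimate from 2 to 8 low intronless genes per library put the depth of F_FSB replicate 2 at 60.0% of that of the deepest library, and the rest at 82.2% or more, so low values in F_FSB replicate 2 are the least precise.

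**Figure D1:**
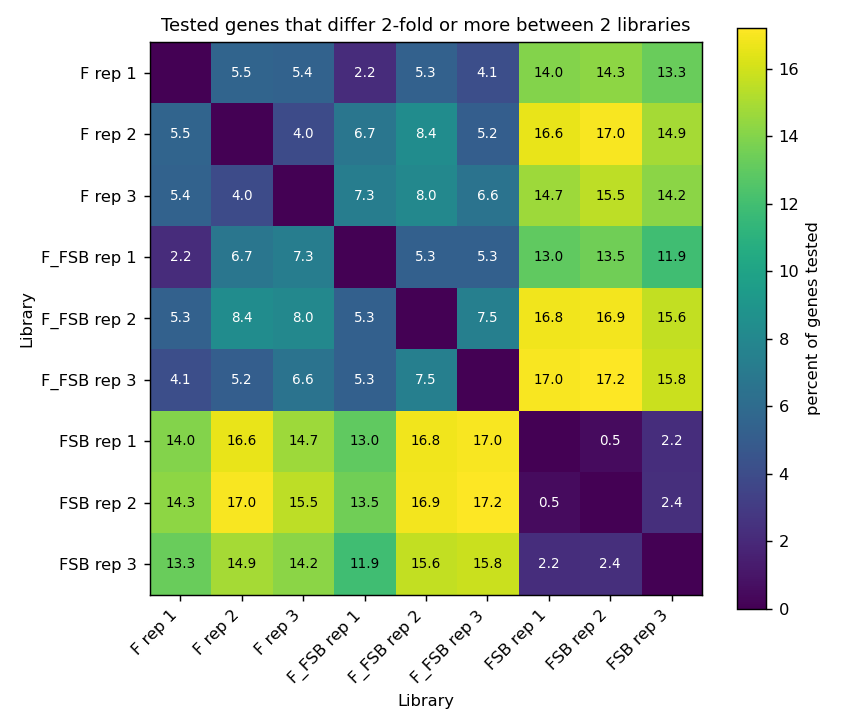
Percent of the 13216 tested genes whose FPKM + 1 differed 2-fold or more between each pair of libraries, with libraries on both axes and the percentage in each cell. F replicate 1 is nearest to F_FSB replicate 1 (2.19%), while every pair with an FSB library outside FSB is at 11.9% or more.

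GAS1 was the only gene that passed the test between F_FSB and F, which is 0.00757% of genes tested. GAS1 (chromosome 9, 89559277 to 89562104, GRCh37) encodes a cell surface protein that binds Hedgehog ligands together with the receptor Patched. It stood at 47.2, 73.1 and 68.6 FPKM in F replicates 1, 2 and 3 and at 16.8, 17.6 and 16.7 FPKM in F_FSB. All 3 F_FSB libraries lay below all 3 F libraries, and within 1 FPKM of each other. The means were 63.0 ± 13.9 FPKM in F and 17.0 ± 0.525 FPKM in F_FSB (SD, n = 3), a fall by 1.80 on the log2(FPKM + 1) scale (95% interval -2.16 to -1.45, limma, BH-adjusted p = 0.0296). FSB libraries, with the inhibitor still present, held 14.3, 12.6 and 14.7 FPKM. The size of the difference ranged from -1.99 to -1.68 when any 1 library was left out, and the adjusted p from 0.000561 to 0.246. Under limma with BH adjustment it passed without F replicate 1 (0.000561) or F replicate 2 (0.0431) but not without F replicate 3 (0.246), FSB replicate 1, 2 or 3 (0.147, 0.115 and 0.0664) or F_FSB replicate 1, 2 or 3 (0.112, 0.105 and 0.053), nor in a fit of the 6 libraries alone (0.337), with no filter on low values (0.0875) or with the replicate number as a block (0.256).

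BOC and CDON are the other membrane co-receptors of Hedgehog ligands. CDON and the further Hedgehog genes of this paragraph were chosen after their values were seen. BOC (chromosome 3, 112931375 to 113006306) stood at 17.5, 85.5 and 94.3 FPKM in F and at 10.8, 14.8 and 8.02 in F_FSB. The groups did not overlap, but F replicate 1 lay much nearer to F_FSB than to the other F libraries, and the difference of -2.17 (95% interval -3.47 to -0.86) did not pass (limma, BH-adjusted p = 0.464). CDON held 2.69, 20.8 and 14.4 FPKM in F and 2.12, 3.59 and 2.96 in F_FSB, so F replicate 1 lay within the range of F_FSB. Without F replicate 1 both passed, BOC by -2.93 (limma, BH-adjusted p = 0.00845) and CDON by -2.25 (limma, BH-adjusted p = 0.0238). With another library left out, the adjusted p of both reached 0.963 (limma, BH-adjusted), so passing rested on the removal of F replicate 1. PTCH1, the Hedgehog receptor and itself a target of the pathway, was at 1.66, 1.60 and 2.09 FPKM in F and at 1.64, 0.926 and 1.24 in F_FSB, with a difference of -0.30 whose 95% interval (-0.64 to 0.03) lay within 2-fold. In FSB it was at 5.27 to 6.66 FPKM. The signal transducer SMO (-0.36) and the transcription factors GLI2 (0.05) and GLI3 (-0.38) also had intervals within 2-fold. The ligand genes SHH and IHH were listed at 0 or below 0.1 FPKM in all 9 libraries, and the target GLI1 stayed below 1 FPKM in all 9.

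Over all genes, the differences were small and balanced. The median difference F_FSB minus F was -0.0021 and the median size 0.13 on the log2 scale. Without adjustment, 1195 genes (9.04%) had a p under 0.05, 631 higher and 564 lower in F_FSB. The split was 669 higher and 585 lower with median-ratio scaling, and 629 and 601 with quantile normalization. Of the scalings, only dividing each library by its FPKM sum turned it, with the median at -0.123 and the split at 232 higher and 881 lower. In F_FSB replicate 2, MIR4461, a microRNA gene, made up 111389 FPKM of that sum. The split also turned, by less, with no filter on low values (776 higher and 820 lower). The same held without F replicate 2 (486 and 551) and without F_FSB replicate 2 (461 and 498). F_FSB libraries lay wholly above F libraries at 830 genes (6.28%) and wholly below at 894 (6.76%). A difference of 1 or more on the log2 scale was found at 393 genes, 189 higher and 204 lower.

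**Figure D2:**
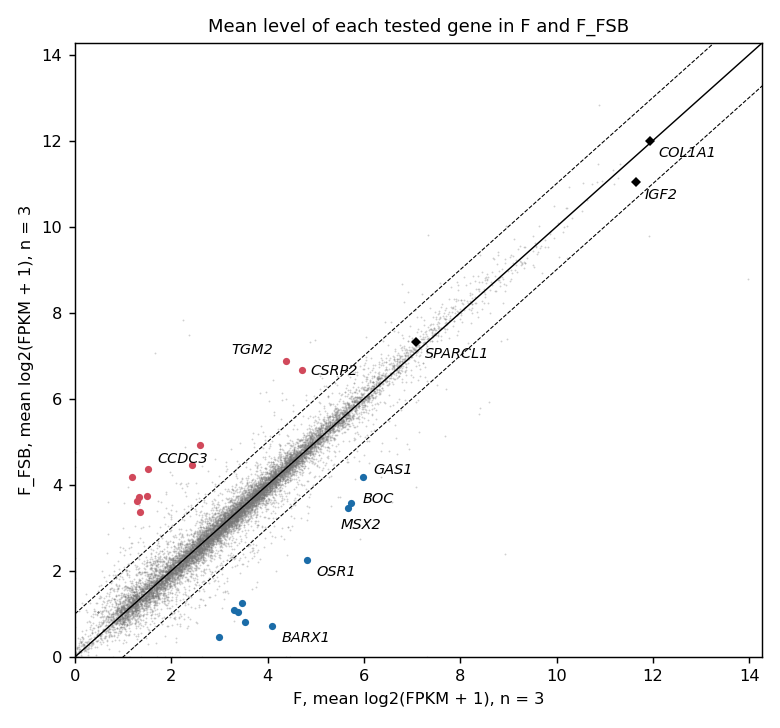
Mean log2(FPKM + 1) of each tested gene in F (x axis) and F_FSB (y axis), n = 3 each, with the line of equality and dashed lines at 2-fold. Grey points are all tested genes, most of them between the dashed lines. Red and blue points are the 20 largest differences without overlap of libraries, higher and lower in F_FSB. Black diamonds are 3 highly expressed genes. Each point gives means only, so nearness to the line of equality does not show that levels match.

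Among genes whose libraries did not overlap and whose higher group had a mean of 5 FPKM or more, the 10 largest differences downwards were those of BARX1, HOXA3, OSR1, LHX8, VAT1L, HIC1, HLX, MSX2, BOC and GAS1. Of these only GAS1 passed the test. For BARX1, HOXA3, LHX8, VAT1L, HIC1 and HLX the 3 F libraries sufficed to pass the filter on low values, and the F_FSB libraries alone did not. A lower level in F_FSB was thus in part favoured by the filter for these genes. OSR1, MSX2, BOC and GAS1 reached 1 FPKM in every F and F_FSB library. BARX1, a homeobox factor of the jaw and tooth mesenchyme, stood at 7.00, 11.7 and 48.3 FPKM in F and was listed at 0, 0 and 3.38 in F_FSB (difference -3.39, 95% interval -5.22 to -1.55, limma, BH-adjusted p = 0.419). LHX8, a LIM homeobox factor of the same mesenchyme, was at 5.45, 2.80 and 19.6 FPKM in F and at 0.0479, 0.310 and 0.924 in F_FSB. Every F library thus held both genes above 1 FPKM, while BARX1 was listed at 0 in 2 F_FSB libraries and all 3 had less than 1 FPKM of LHX8. MSX2, a homeobox factor downstream of BMP signals, was at 45.2, 43.2 and 64.2 FPKM in F and at 4.97, 5.18 and 35.7 in F_FSB. OSR1, a zinc finger factor of connective tissue progenitors, was at 10.6, 80.1 and 23.3 FPKM in F and at 3.41, 1.99 and 7.09 in F_FSB (difference -2.58). In MSX2 and BARX1, F_FSB replicate 3 stood above the other F_FSB libraries and nearest to F. The homeobox factor HLX was at 2.35, 24.5 and 15.0 FPKM in F and at 0.450, 2.34 and 1.82 in F_FSB, and HIC1, a transcriptional repressor, at 3.47, 18.7 and 9.91 and at 0.545, 1.88 and 1.13. The lowest F library was replicate 1 for both, and for HLX it was almost level with the highest F_FSB library.

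HOX genes give crest cells their position along the body axis, and no listed HOX gene or cofactor passed the test on all 9 libraries. Of 46 listed HOX genes and their cofactors of the PBX and MEIS families, 35 stayed below 1 FPKM in the 6 libraries and 9 passed the filter on low values. The F libraries sufficed for HOXA2, HOXA3, HOXB2 and MEIS1 to pass it, so their direction was in part fixed by the filter. HOXA3 was at 6.57, 26.7 and 6.34 FPKM in F and at 1.70, 0.0978 and 0.776 in F_FSB, a difference of -2.73 (95% interval -3.96 to -1.5, limma, BH-adjusted p = 0.344). HOXB2 was at 1.82, 6.18 and 2.92 FPKM in F and at 0.334, 0.480 and 0.260 in F_FSB (difference -1.67), and HOXA2, chosen after its values were seen, at 3.69, 19.1 and 6.77 and at 2.08, 0.522 and 3.56. F replicate 2 was the highest library for all 3. HOXB2 passed without F replicate 1 (limma, BH-adjusted p = 0.0344), and HOXA3 did not (0.0835). With another library left out, the adjusted p of HOXB2 reached 0.833 (limma, BH-adjusted). The cofactor MEIS2 had the opposite order, at 39.7, 31.5 and 22.0 FPKM in F and 64.0, 64.6 and 68.4 in F_FSB. Its difference was 1.09 (limma, BH-adjusted p = 0.275, and 0.0275 without F replicate 1). With another library left out, its adjusted p reached 0.617 (limma, BH-adjusted). MEIS1, also chosen after its values were seen, was at 2.08, 9.74 and 3.24 FPKM in F and at 1.05, 0.502 and 0.994 in F_FSB. PBX2 differed by 0.11, with an interval within 2-fold.

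**Figure D3:**
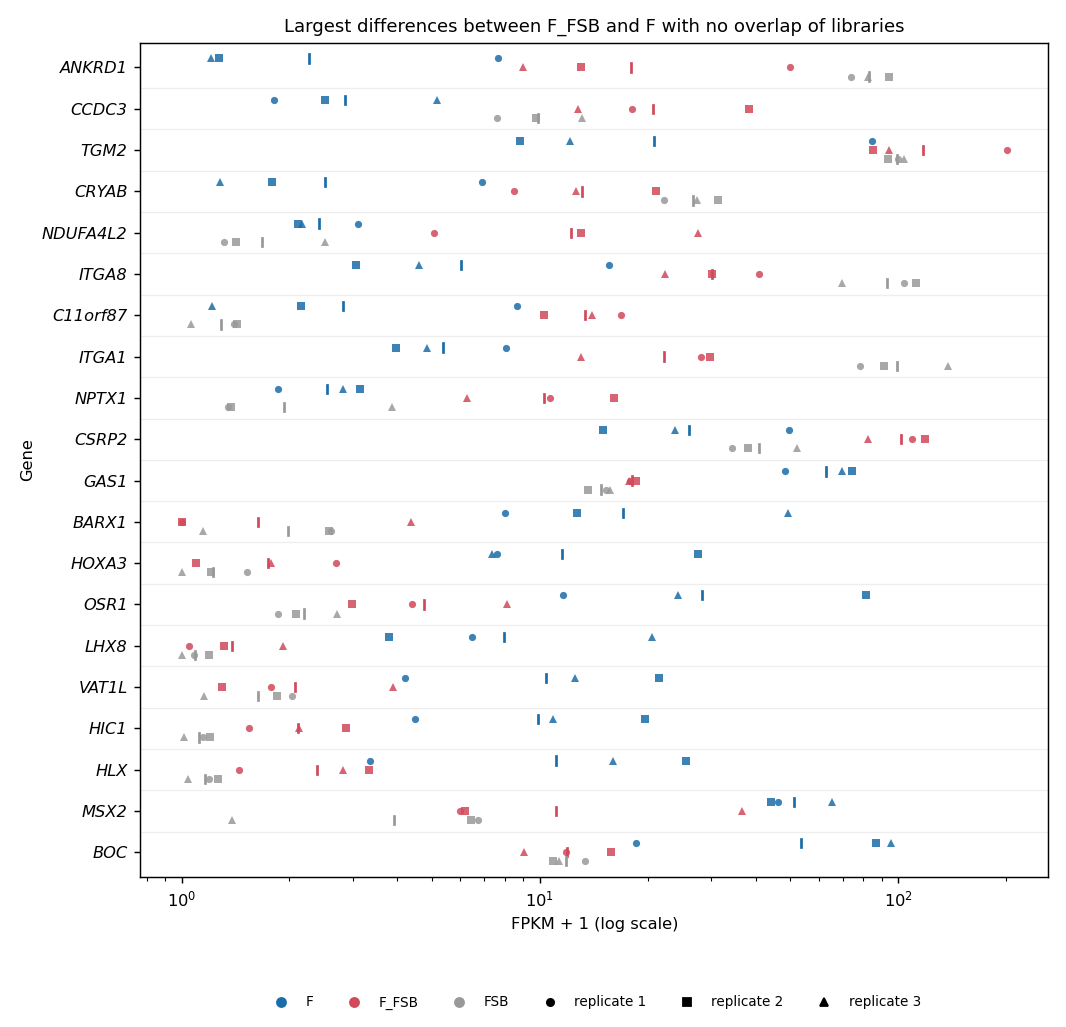
FPKM + 1 (log axis) in every library for the 10 largest differences each way between F_FSB and F without overlap, with FSB in grey; symbols mark the replicate and vertical ticks the mean of the log values. F replicate 1 (blue circle) is the F library nearest to F_FSB for 8 of the 10 higher and 7 of the 10 lower genes. These genes were picked from the same libraries, and no share over all tested genes is given beside these counts, so they are a description only.

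The 10 largest differences upwards were those of ANKRD1, CCDC3, TGM2, CRYAB, NDUFA4L2, ITGA8, C11orf87, ITGA1, NPTX1 and CSRP2, none of which passed the test on all 9 libraries. ANKRD1, a nuclear and sarcomeric protein induced by mechanical stretch, was at 6.65, 0.270 and 0.207 FPKM in F, 49.0, 12 and 7.95 in F_FSB and 72.8, 93.3 and 81.4 in FSB. The crosslinking enzyme TGM2 was at 83.4, 7.79 and 11.1 FPKM in F and at 200.5, 84.3 and 93.5 in F_FSB, so that F replicate 1 all but reached the F_FSB level. CRYAB, a small heat shock protein, was at 5.90, 0.786 and 0.283 FPKM in F and at 7.46, 20.1 and 11.6 in F_FSB. In all 3, F replicate 1 was the highest F library. Without it TGM2 and CRYAB passed (differences 3.51 and 3.11, limma, BH-adjusted p = 0.0168 and 0.028) while ANKRD1 did not (3.86, limma, BH-adjusted p = 0.06). With another library left out, the adjusted p of all 3 reached 0.963 (limma, BH-adjusted).

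The collagen-binding and fibronectin-binding integrins ITGA1 and ITGA8 lay between F and FSB. ITGA1, the α chain of a collagen receptor, held 77.3, 90.2 and 137 FPKM in FSB, 27.1, 28.8 and 12 in F_FSB and 7.05, 2.97 and 3.85 in F. ITGA8, the α chain of a receptor for RGD-containing matrix proteins, held 103, 111 and 68.8 FPKM in FSB, 40.0, 29.3 and 21.3 in F_FSB and 14.6, 2.07 and 3.59 in F. No F_FSB library overlapped F or FSB for either gene. The differences F_FSB minus F were 2.04 (95% interval 1.15 to 2.94) and 2.33 (1.06 to 3.59), with limma BH-adjusted p = 0.338 and 0.42. The basement membrane collagens COL4A1 and COL4A2 were at 151 to 263 and 191 to 282 FPKM in F and at 308 to 481 and 316 to 439 in F_FSB (differences 1.11 and 0.80), near the 462 to 509 and 410 to 430 FPKM of FSB.

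NQO1, a quinone reductase of the antioxidant response, had a similar order with less spread. It was at 86.6, 58.8 and 54.6 FPKM in F, 179, 202 and 138 in F_FSB and 735, 858 and 785 in FSB. The difference F_FSB minus F was 1.38 (95% interval 0.91 to 1.84, limma, BH-adjusted p = 0.191, and 0.0246 without F replicate 1). With another library left out, the adjusted p reached 0.55 (limma, BH-adjusted). AP1S2, a subunit of a clathrin adaptor complex that was chosen after its values were seen, was at 16.2, 13.0 and 12.8 FPKM in F, 29.8, 27.4 and 27.0 in F_FSB and 52.6, 62.0 and 48.3 in FSB. For both genes the 3 groups did not overlap, with F_FSB between the others and nearer to F in FPKM. On the log2(FPKM + 1) scale AP1S2 lay about midway, with 0.96 for F_FSB minus F and -0.92 for F_FSB minus FSB. LIN28B, which blocks the processing of let-7 microRNAs, was at 4.30, 0.524 and 0.286 FPKM in F, 8.67, 5.06 and 2.31 in F_FSB and 51.4 to 67.7 in FSB, with F and F_FSB overlapping through F replicate 1.

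Other genes were higher in F_FSB than in either of the other groups. SYT11, a synaptotagmin involved in membrane traffic, was at 6.79, 7.37 and 6.29 FPKM in F and at 12.3, 12.6 and 12.7 in F_FSB, and at 5.61 to 6.64 in FSB (difference F_FSB minus F 0.79, 95% interval 0.59 to 0.99, limma, BH-adjusted p = 0.0991). The integrin ITGA4, which binds fibronectin and VCAM1, was at 9.41, 6.19 and 8.23 FPKM in F, 19, 17.2 and 21 in F_FSB and 6.24 to 8.60 in FSB. The forkhead factor FOXS1 was at 1.46, 0.945 and 0.783 FPKM in F, 4.66, 6.44 and 3.19 in F_FSB and 0.461 to 0.659 in FSB. FOXS1 passed the filter on low values only through the F_FSB libraries, so its direction was in part fixed by the filter. SYT11 and ITGA4 were chosen after their values were seen. SYT11, ITGA4 and FOXS1 passed without F replicate 1 (limma, BH-adjusted p = 0.0337, 0.0315 and 0.0403) and not with it (the last 2 at 0.191). With another library left out, their adjusted p reached 0.437, 0.505 and 0.558 (limma, BH-adjusted). NDUFA4L2, a hypoxia-induced mitochondrial protein, was at 1.12 to 2.1 FPKM in F, at 4.06, 12 and 26.7 in F_FSB and at 0.313 to 1.52 in FSB. CSRP2, a LIM protein of smooth muscle and stellate cells, was at 48.5, 14.0 and 22.8 FPKM in F, 108, 118 and 81.2 in F_FSB and 33.4 to 51.2 in FSB (difference F_FSB minus F 1.97).

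Leaving out F replicate 1 raised the number of genes that passed from 1 to 77 (0.583%), 48 higher and 29 lower in F_FSB. These genes were selected by leaving this library out, so where it lies among them is part of how they were chosen and is given as values only. TGFB2, a ligand of the blocked receptors, was at 76.9, 6.40 and 4.05 FPKM in F and 129, 51.9 and 50.1 in F_FSB. SULF1, which trims sulphate from heparan sulphate, was at 143, 15.1 and 10.1 and at 165, 172 and 140.3 FPKM. Both were chosen after their values were seen, and in both F replicate 1 was within the F_FSB range and the other F libraries far below it. AHR, the aryl hydrocarbon receptor, was at 40.5, 8.40 and 10.7 FPKM in F and at 44.6, 34.8 and 26.0 in F_FSB. Leaving out each of the other 8 libraries in turn gave 0 to 4 calls.

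To describe what matched, the 95% interval of each difference was read, since a p that misses the threshold does not show that levels are alike. For 11275 genes (85.3%) the interval lay wholly within 2-fold either way, and for 297 (2.25%) it reached past 2-fold on both sides, so that these genes cannot be placed. On the FPKM + 1 scale a gene below 1 FPKM in all 6 libraries cannot show a 2-fold difference, and 186 of the matched genes were of this kind. Between FSB and F, 5536 genes (41.9%) passed the test, 1533 of them by 1 or more on the log2 scale. Of these 1533 inhibitor-responsive genes 60.4% matched within 2-fold between F_FSB and F, against 88.6% of the other genes. The share was 72.6% of the 822 genes higher in FSB and 46.3% of the 711 lower in FSB. Without the genes below 1 FPKM in all 6 libraries, a step added after the values were seen, it was 68.4% of 683 genes and 46.3% of 711. The median standard error of F_FSB minus F was 0.21 in the first set, 0.30 in the second and 0.13 among other genes, so the second set was measured with less precision. The 2 comparisons share the F libraries, so these shares are a description.

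The genes that were highest with the inhibitor, compared with F, lay mostly at the level of F in F_FSB. CYP1A1, a cytochrome P450 controlled by the aryl hydrocarbon receptor, was at 137, 161 and 124 FPKM in FSB, 0.346, 0.404 and 0.0758 in F_FSB and 0.0677, 0.0995 and 0.0955 in F. LIN28A, a pluripotency-associated RNA-binding protein, was at 74.3 to 85.4 FPKM in FSB and at most 0.0529 in F_FSB and 0.0188 in F. Neither gene overlapped between FSB and the other groups, while F_FSB and F overlapped. TAC1, which encodes substance P, was at 36.5 to 117 FPKM in FSB, listed at 0 in all 3 F_FSB libraries and at 0.0578 to 0.140 in F. The drug efflux transporter ABCG2 was at 30.9 to 41.7, 0.366 to 0.601 and 0.181 to 0.478 FPKM in FSB, F_FSB and F. The zinc finger factor ZBTB16 was at 10.8 to 13.4 FPKM in FSB and listed at 0 in the other 6 libraries. All 5 of these genes were below 1 FPKM in all 6 libraries of F and F_FSB, too low for the FPKM + 1 scale to show a 2-fold difference between these groups. The mean of CYP1A1 was 0.275 FPKM in F_FSB and 0.0876 in F. Among the 10 largest increases in FSB, IGDCC3, RARRES2, LIN28B and ANKRD1 had intervals that reached past 2-fold. RARRES2, which encodes the chemokine chemerin, was at 12.8 FPKM in F_FSB replicate 2 and at 0.676 and 0.932 in the others, against 0.303 to 1.34 in F.

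**Figure D4:**
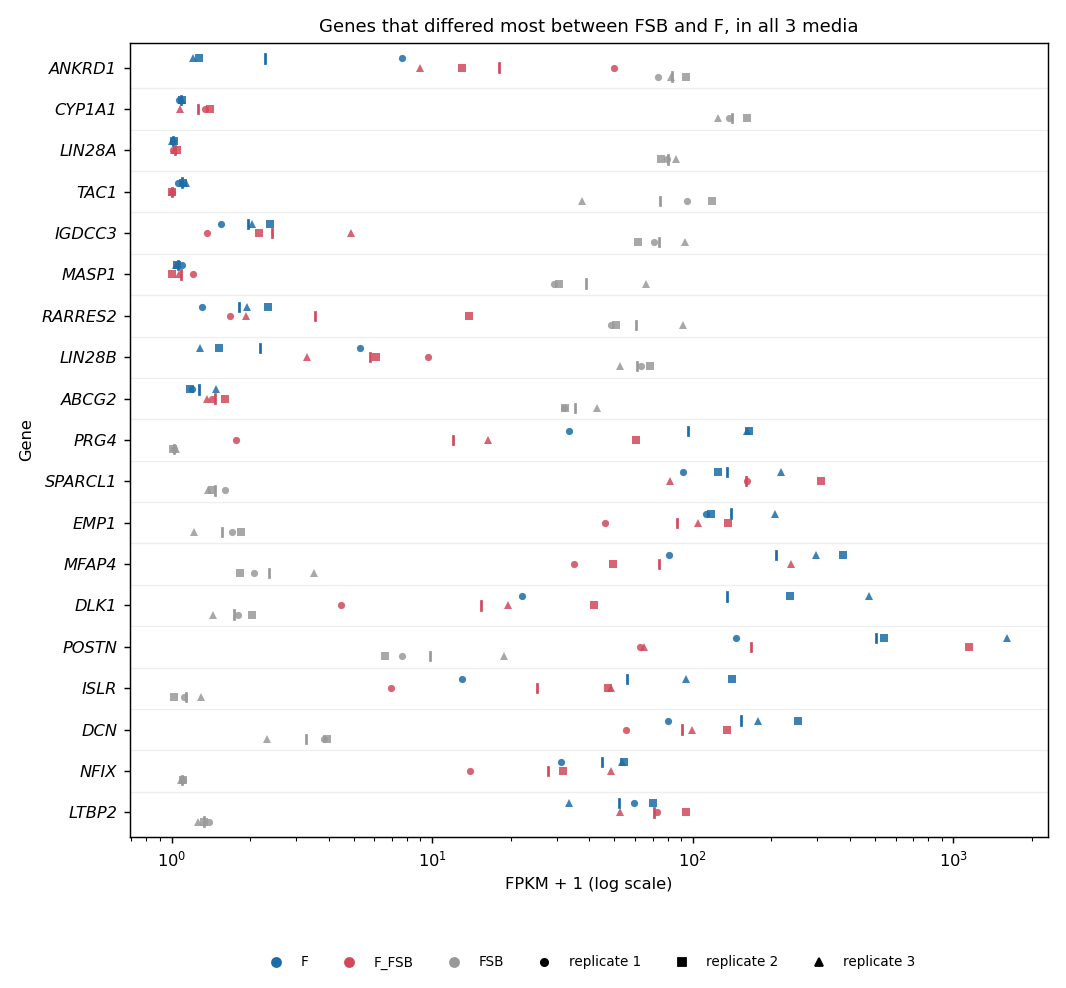
FPKM + 1 (log axis) in every library for 9 of the 10 genes most above and for the 10 most below F in FSB; colours mark the medium, symbols the replicate and vertical ticks the mean of the log values. F_FSB (red) lies with F (blue) for the upper genes other than ANKRD1, LIN28B and 1 library each of IGDCC3 and RARRES2, and scatters as widely as F for most of the lower genes.

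Some genes that were low with the inhibitor matched F narrowly in F_FSB. COL1A1, the main chain of type I collagen, was at 4511, 3550.0 and 3763 FPKM in F, 3835, 3825 and 4645 in F_FSB and 156 to 207 in FSB (difference F_FSB minus F 0.06, 95% interval -0.38 to 0.50). The AP-1 subunit JUNB was at 19.1, 20.2 and 15.4 FPKM in F and 17.6, 21.1 and 14.3 in F_FSB, and the TGF-β-inducible factor KLF10 at 14.8, 12.4 and 19.7 and at 17.3, 18.4 and 13.3. Both were below 4 FPKM in every FSB library. The groups F and F_FSB overlapped for all 3, and SELM, BCL3 and SLFN11 had intervals as narrow. JUNB, KLF10, SELM, BCL3 and SLFN11 were picked because their intervals lay closest to 0, so their narrow match follows from the choice. LTBP2, a latent TGF-β binding protein, was at 32.6 to 69.6 FPKM in F and 51.5 to 93.1 in F_FSB against 0.257 to 0.395 in FSB (difference F_FSB minus F 0.45, 95% interval -0.22 to 1.12). SPARCL1, a matricellular protein, was at 90.6 to 217 FPKM in F, 80.9 to 310 in F_FSB and 0.380 to 0.603 in FSB (difference F_FSB minus F 0.24, 95% interval -0.85 to 1.32). The intervals of LTBP2 and SPARCL1 reached past 2-fold, so neither matched, although both genes were far above FSB in every F and F_FSB library.

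Other genes that were low with the inhibitor were uneven within F and F_FSB, and POSTN and IGF2 cannot be placed. POSTN, the matricellular protein periostin, was at 146, 539 and 1599 FPKM in F and at 61.9, 1146 and 63.7 in F_FSB (difference -1.59, 95% interval -4.45 to 1.27). The imprinted growth factor gene IGF2 was at 1303, 6816 and 3695 FPKM in F and at 640.2, 2936 and 4855 in F_FSB (-0.62, -2.89 to 1.66). Within each group these values ranged more than 5-fold, and the groups overlapped. PRG4, the joint lubricant lubricin, was at 32.4, 163 and 161 FPKM in F and 0.764, 59.4 and 15.3 in F_FSB, and the imprinted gene DLK1 at 21.1, 235 and 471 and at 3.48, 40.6 and 18.5. Their differences were -3.0 (-5.70 to -0.30) and -3.13 (-5.78 to -0.48), and neither passed (limma, BH-adjusted p = 0.542 and 0.527). F replicate 1 was again the F library nearest to F_FSB for both.

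No member of the gene lists passed the test on all 9 libraries. The lists are described by their medians, beside -0.0021 for all genes, and by the share that matched, beside 85.3% of all genes. All 21 cholesterol synthesis genes matched within 2-fold, with a median of 0.14 and a range of -0.117 to 0.308. HMGCS1, which makes the sterol precursor HMG-CoA, was at 152, 177 and 135 FPKM in F, 173, 199 and 187 in F_FSB and 408 to 556 in FSB. Of 25 proliferation genes 23 matched, with a median of -0.18. TOP2A, a topoisomerase of dividing cells, was at 48.4 to 54.5 FPKM in F, 32.8 to 49.5 in F_FSB and 62.7 to 99.1 in FSB. In FSB, 20 of the cholesterol genes and 22 of the proliferation genes were higher than in F, against 28.5% of all genes. Of 39 fibrillar matrix genes tested 16 matched and 7 could not be placed, with a median of -0.03, while 24 were lower in FSB than in F, against 13.4% of all genes. COL5A3, a minor chain of type V collagen, stood out at 24.5, 30.1 and 10.5 FPKM in F and 48.0, 101 and 50.6 in F_FSB (difference 1.60, limma, BH-adjusted p = 0.441).

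Among 32 TGF-β and activin response genes, 14 matched within 2-fold and the median was 0.17. The receptor gene ACVR1B was at 6.70, 7.85 and 7.77 FPKM in F and 5.14, 5.14 and 5.05 in F_FSB, without overlap but within 2-fold (difference -0.46, 95% interval -0.67 to -0.26). The TGF-β-induced matrix gene TGFBI was at 351 to 582 FPKM in F and at 306, 436 and 1639.8 in F_FSB, the last in replicate 3, against 62.5 to 74.8 in FSB. Of 18 contractile genes 10 matched, with a median of 0.29. TPM2, a tropomyosin, was at 216, 183 and 178 FPKM in F, 259, 293 and 284 in F_FSB and 399 to 447 in FSB, so that its groups kept the order of the inhibitor without overlap (difference F_FSB minus F 0.54, 95% interval 0.28 to 0.80). Of 21 FGF and ERK response genes 8 matched, with a median of -0.31. FGFR1, a receptor for FGF2, was at 33.7, 63.0 and 147 FPKM in F and 23.9, 37.9 and 34.0 in F_FSB. SPRED2, a feedback inhibitor of this pathway, was at 26.4, 41.9 and 46.8 and at 25.6, 27.5 and 18.2 FPKM. Neither passed the test, and F and F_FSB overlapped for both.

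**Figure D5:**
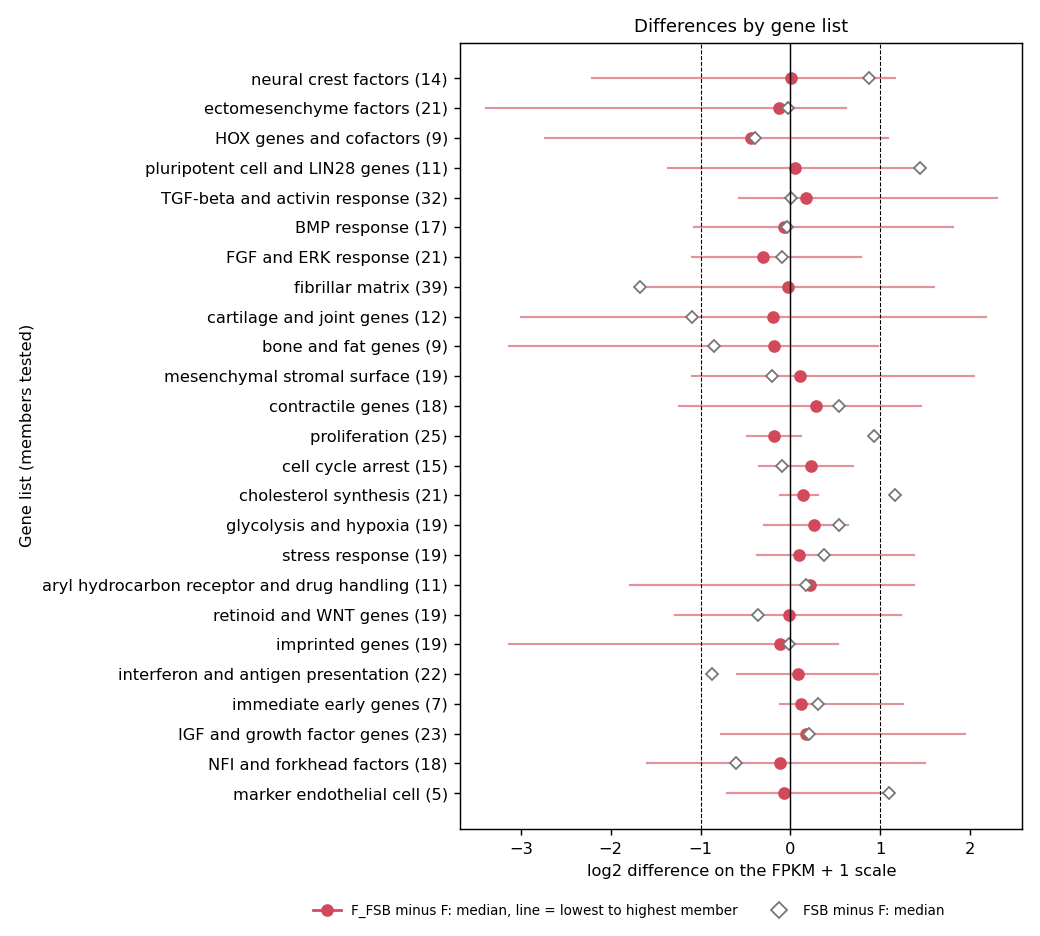
Median log2 difference of each gene list between F_FSB and F (red point, with a line from the lowest to the highest member) and between FSB and F (open diamond); the number of members tested is in brackets and dashed lines mark 2-fold. The cholesterol synthesis and proliferation lists have red lines inside 1 and diamonds near 1, while the ectomesenchyme, cartilage, bone and imprinted lists reach to about -3 or lower.

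The cells were checked against markers of their label. NGFR, which encodes the sorted marker CD271, was at 0.725, 41.3 and 18.0 FPKM in F, 1.5, 5.92 and 7.26 in F_FSB and 104 to 134 in FSB, and its difference F_FSB minus F (-1.09, 95% interval -3.50 to 1.31) cannot be placed. NT5E, which encodes CD73, was at 63.2, 99.1 and 56.4 FPKM in F and 68.1, 46.2 and 74.8 in F_FSB. The crest marker SOX10 was below 0.1 FPKM in all 6 libraries, and FOXD3, PAX7 and ZIC1 were below 0.1 in all 9, so these 4 factors of early crest cells were absent or nearly so. PAX3, another of them, was at most 0.376 FPKM in the 6 libraries except for 1.49 in F_FSB replicate 2. Of the crest factors TFAP2A and TFAP2B, which were present, TFAP2A was at 21.2, 14.5 and 9.64 FPKM in F and 29.7, 21.0 and 12.4 in F_FSB, and TFAP2B at 16.4, 1.25 and 1.86 and at 19.7, 20.4 and 1.87. PAX3, TFAP2A and TFAP2B were chosen after their values were seen, and F and F_FSB overlapped for all 3. SOX9, of crest and cartilage, was at 15.9, 23.2 and 58.3 FPKM in F and 10.6, 22.7 and 25.1 in F_FSB. SNAI2, a repressor of epithelial genes, was at 53.0 to 70.8 FPKM in F and 42.7 to 51.8 in F_FSB, lower without overlap but within 2-fold (difference -0.43, 95% interval -0.71 to -0.15). The mesenchyme factor PRRX1 (144 to 186 FPKM in F and 171 to 255 in F_FSB) matched. In bulk libraries such as these, fewer cells of a type and less RNA per cell cannot be told apart.

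F_FSB replicate 3 stood apart in the lower jaw factors DLX5 and DLX6 and in MSX1, which were chosen after their values were seen. DLX5 was at 9.47, 10.2 and 1.99 FPKM in F and at 0.213, 0.0612 and 80.5 in F_FSB. DLX6 was at 2.06, 5.43 and 1.11 and at 0.150, 0 and 37.1 FPKM, and MSX1 at 0.188, 2.18 and 12.2 and at 0.150, 0.129 and 13.4. The F_FSB cultures thus lay both below and above all F cultures for DLX5 and DLX6, and the intervals reached past 2-fold on both sides for all 3 genes. F_FSB replicate 2 stood apart in the proteoglycan osteoglycin OGN, at 49.3 FPKM against 0.221 and 3.70 in the other F_FSB libraries and 3.26 to 41.5 in F.

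Markers of other cell types were mostly at the floor. Of 9 endoderm markers none reached 1 FPKM in the 6 libraries, and 5 of 10 epithelial markers, CDH1, GRHL2, KRT14, KRT5 and TP63, were below 0.1 FPKM in all 9. The summed level of the epithelial list, most of it KRT8 and KRT18, ran from 37.0 to 128 FPKM in F and from 83.1 to 193 in F_FSB. Of 14 neuron markers 9 stayed below 1 FPKM in the 6 libraries, and the summed level ran from 61.2 to 108 in F and from 109 to 151 in F_FSB, most of it the tubulin TUBB3 (53.2 to 97.7 and 105 to 133 FPKM). ELAVL3, ELAVL4, ISL1, NEUROG1 and POU4F1 were below 0.1 in all 9. The sum of the 10 paraxial mesoderm markers ran from 7.00 to 96.8 FPKM in F and from 4.02 to 25.1 in F_FSB, carried by MEOX1 and MEOX2, with MSGN1, PAX1 and T below 0.1 in all 9. Sums for Schwann cell and glia markers were 70.6 to 80.9 and 63.2 to 94.5 FPKM, mostly PMP22, with GFAP below 0.1 in all 9. Those for central neuroectoderm, nearly all NES, were 27.8 to 79.2 and 22.1 to 43.6, with OTX2 and SOX1 below 0.1. Sums were 2.84 to 6.54 and 1.57 to 5.43 FPKM for melanocytes (DCT, TYR and TYRP1 below 0.1), 4.34 to 11.3 and 7.07 to 11.1 for endothelium, 0.760 to 3.78 and 1.46 to 2.67 for muscle (MYF5, MYH6, MYH7, MYOD1 and MYOG below 0.1) and 18.8 to 29.4 and 11.9 to 22.9 for blood (GATA1, HBG1, PTPRC and SPI1 below 0.1). The part of these markers in the differences between F_FSB and F was not tested. The median difference of each autosome lay between -0.032 and 0.015, so no autosome stood apart as a whole.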

How the data were processed

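RNA was sequenced from 9 cultures, 3 each in F, FSB and F_FSB, which the design text calls biological replicates. Libraries were strand-specific, per the labels' protocols. Use of the strand in quantification was not given in the sources used here. Antisense and overlapping genes are therefore uncertain. Per the submitters' processing notes, the genome build was GRCh37 and the tools were TopHat2 2.0.12 with Cufflinks 2.1.1. The deposited values are FPKM per gene, with the authors' FPKM interval bounds, per the file headers. In each library 850 to 1283 genes lay above their own bound, so the bounds were not used.

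Values were analysed as log2(FPKM + 1), which understates the change of low genes, with limma 3.58.1 in R 4.3.3. A single fit of group means took all 9 libraries and a trend of variance on mean level. Two-sided p-values were adjusted over 13216 genes by Benjamini-Hochberg (BH), at a threshold of 0.05. Intervals are 95% and unadjusted. Of the loci, 95 had a status other than OK and were left out. Very short RNA genes, whose FPKM is unreliable, are not named as results. Fragment counts and absolute depth are unknown. Python 3.11.15, pandas 2.3.3 and matplotlib 3.10.9 joined and drew the data. The test was checked on simulated data. No 2 libraries held the same table, and at most 0.00586% of values were equal.

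The members and the gene lists were chosen with earlier results of these data known. Named genes followed a rule: genes past the threshold, the 10 largest differences each way without overlap and with a mean of 5 FPKM or more, the 10 largest each way in FSB minus F, genes moved by the inhibitor by 2 or more on the log2 scale that lay closest to F or farthest from it, 2 to 4 genes per list with the smallest p or highest mean, and SOX9, NGFR and NT5E. A few genes under this rule are not reported here. Alternatives changed the pseudocount, filter, scaling, libraries and fit, and left out each library in turn.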

Additional observations from a re-analysis of the deposited data

How the results depend on the processing

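On the deposited scale 1 gene was lower and 0 were higher in F_FSB (limma, BH adjustment), against 564 and 631 at an unadjusted p under 0.05. Leaving out 1 library gave 0 to 48 higher and 0 to 29 lower, both highest without F replicate 1. With no filter on low values, or with the replicate number as a block, 0 genes were lower, and GAS1 had an adjusted p of 0.0875 and 0.256 (limma, BH-adjusted). In the fit of 6 libraries the 1 lower gene was a small nucleolar RNA, not GAS1. The numbers were not treated as pairs, since they were not stated to pair cultures. Deviations of same-numbered F and F_FSB libraries correlated at 0.29, -0.03 and 0.10, and those of differently numbered ones at -0.23 to 0.13. These values do not decide whether the cultures were paired. Genes matched within 2-fold were 11275, and 18576 of 21123 with no filter. Genes that cannot be placed were 297, and 601 with a pseudocount of 0.1, 115 with 5, 492 with no filter, 467 in the fit of 6 libraries and 259 to 450 with 1 library left out. The matched share of inhibitor-responsive genes, 60.4%, ranged from 46.2% to 66.8%. Of 1354 alternative values for 65 named genes with an interval excluding 0, 1330 gave the same call. Another 14 came past the threshold, 10 no longer passed and 0 reversed. GAS1 was the only gene past the threshold in the main fit, so all 10 losses were of GAS1. For the other genes the same call meant that they missed the threshold again, so the number of same calls does not measure stability. The 65 genes were selected for an interval excluding 0, and some for libraries without overlap, so a reversal was unlikely from the start. The low relative depth of F_FSB replicate 2 limits low genes most, and 3 cultures a group limit all of them.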

Other observations

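None of 15 cell cycle arrest genes and 19 stress response genes passed the test. Of the arrest genes 10 matched within 2-fold and the median was 0.23, and of the stress genes 16 matched with a median of 0.10, beside 85.3% matched and a median of -0.0021 over all genes. F_FSB lay wholly above F at 3 arrest genes and wholly below at 2, beside 6.28% and 6.76% of all genes. CDKN1A, an inhibitor of cyclin-dependent kinases, was at 63.2, 63.4 and 62.1 FPKM in F and 70.5, 108 and 141 in F_FSB (difference 0.69, 95% interval 0.01 to 1.38, limma, BH-adjusted p = 0.549). The p53 target TP53I3 was at 28.5, 29.7 and 31.0 FPKM in F and 34.8, 49.0 and 59.3 in F_FSB, and DDIT4, an inhibitor of mTORC1 induced by stress, at 12.1, 13.6 and 7.32 and at 19.5, 18.5 and 22.7. The kinase inhibitor CDKN1B had the other order, at 24.4 to 27.5 FPKM in F and 18.9 to 20.9 in F_FSB.

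Of 19 glycolysis and hypoxia genes 13 matched, with a median of 0.26 against -0.0021 over all genes. LDHA, lactate dehydrogenase A, was at 400.0, 259 and 245 FPKM in F and at 363, 433 and 437 in F_FSB, and F replicate 1 lay within the F_FSB range. Of 23 IGF and growth factor genes none passed, 6 matched within 2-fold and 2 could not be placed, with a median of 0.17 and members from -0.78 (IGFBP5, which binds insulin-like growth factors) to 1.94 (PDGFA). PDGFA, a chain of platelet-derived growth factor, was at 8.71, 0.736 and 3.66 FPKM in F and 25.9, 20.4 and 6.79 in F_FSB, and ANGPT1, a ligand of the endothelial receptor TEK, at 5.74, 3.32 and 3.19 and at 8.24, 13.6 and 31.2. BMP5, a bone morphogenetic protein from the list of BMP response genes, was at 3.47, 0.778 and 4.22 FPKM in F and at 8.18, 19.8 and 8.31 in F_FSB (difference 1.81, limma, BH-adjusted p = 0.458). ANGPT1 and BMP5 did not overlap between the groups, and PDGFA did.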
